A study of Homo sapiens with 25 samples.

Results

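Retinoic acid (RA) at 0.01 µM was added to NB4 cells that were also kept in MC_2580, and the peaks of 4 histone marks were set against those of cells kept in MC_2580 without RA. NB4 is an established human line derived from acute promyelocytic leukemia, a disease in which a fusion of PML with the retinoic acid receptor RARA holds myeloid cells at the promyelocyte stage. MC_2580 is an inhibitor of LSD1 (KDM1A). The members were 8 of the 25 samples of the series, measured by ChIP-seq (sequencing of immunoprecipitated chromatin) of H3K4me1, H3K4me2, H3K4me3 and H3K27ac after 24 h of treatment. For each mark, 1 sample had MC_2580 plus RA 0.01 µM (the combination) and 1 had MC_2580 and no RA. They were chosen by the treatment labels, which state no dose of MC_2580. Further libraries were used only to describe the differing regions. They hold the same 4 marks after 24 h in DMSO (the solvent), in RA 0.01 µM or in RA 1 µM, LSD1 after MC_2580 or DMSO, and GFI1 in untreated cells.

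Each mark and treatment had 1 library. No difference could therefore be set against a spread between replicates, no p-value is given, and the values describe these libraries. Intervals are 95% intervals and cover counting error only. The combination sample of H3K4me3 has a title with RA 1 µM and a treatment field with RA 0.01 µM. It was placed by the treatment field, and every H3K4me3 value below carries that doubt. The files state no read numbers. A deeper or cleaner library and a larger number of marked regions cannot be told apart in the length of a list. All positions are on hg18, and no gene positions on that build were used here, so regions are named by position and the cell type could not be checked by marker genes.

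LSD1 removes methyl groups from mono- and dimethylated lysine 4 of histone H3 and sits in repressor complexes. GFI1, a repressor of the myeloid lineage, brings LSD1 to its sites. H3K4me1 lies over enhancers, H3K4me2 over enhancers and promoters, H3K4me3 mainly over promoters, and H3K27ac over active elements of either kind. RA binds RARA, which turns from a repressor into an activator of its target genes, and RA drives promyelocytic leukemia cells towards granulocytes.

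The marks split into a pair with many combination-only peaks and a pair with more MC_2580-only peaks. A peak was called combination-only when no peak of the same mark in the MC_2580 list overlapped it by 1 base or more, MC_2580-only in the reverse case, and shared otherwise. H3K27ac had the largest share of combination-only peaks of the 4 marks. It had 41191 peaks in the combination, of which 19821 (48.1%) were combination-only, and 24552 with MC_2580, of which 2993 (12.2%) were MC_2580-only. The ratio of these counts was 6.62, a log2 ratio of 2.73. H3K4me1 followed with 17077 combination-only peaks of 72810 (23.5%) and 2547 MC_2580-only peaks of 54181 (4.7%), a log2 ratio of 2.75.

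H3K4me2 and H3K4me3 had the reverse order. For H3K4me2, 6688 of 45463 peaks (14.7%) were combination-only and 8749 of 50736 (17.2%) were MC_2580-only, a log2 ratio of -0.39. For H3K4me3, 2524 of 26963 peaks (9.36%) were combination-only and 6390 of 29872 (21.4%) were MC_2580-only, a log2 ratio of -1.34. The list with more peaks had more peaks of its own in every mark. With the longer list cut by score to the length of the shorter one, the log2 ratio was 0.27 for H3K27ac, -0.43 for H3K4me1, 0.49 for H3K4me2 and -0.41 for H3K4me3, so that only H3K27ac and H3K4me3 kept their sign.

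**Figure D1:**
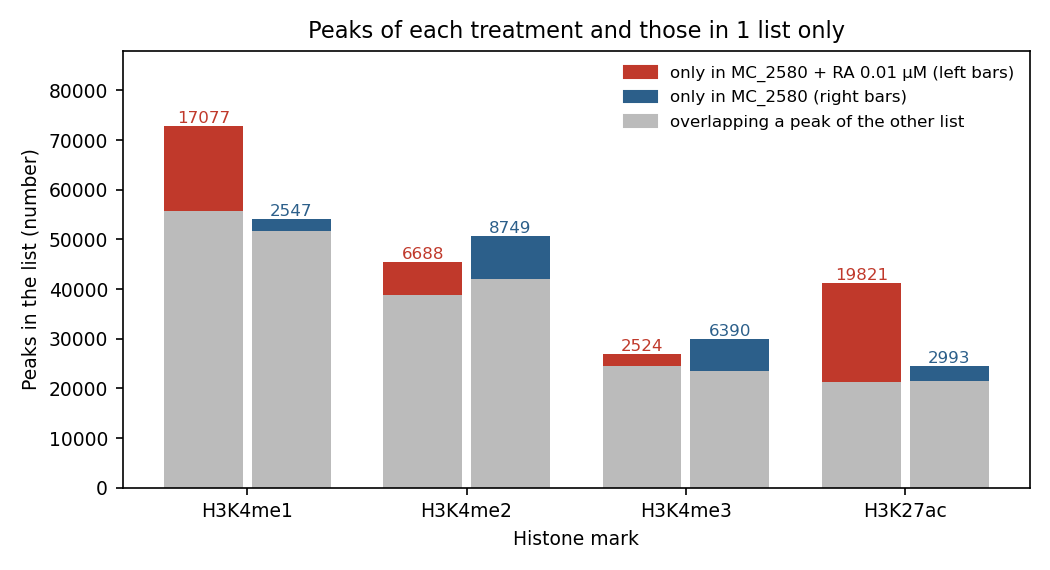
Number of peaks in each list, with the combination as the left bar and MC_2580 as the right bar of each mark. Grey parts overlap a peak of the other list, and coloured parts, with their number above, do not: 19821 against 2993 for H3K27ac and 2524 against 6390 for H3K4me3.

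Covered bases gave the same picture for H3K27ac. Its peaks covered 149 Mb in the combination and 95.3 Mb with MC_2580, a ratio of 1.57, and the bases in both lists were 51.6% of the combination's and 80.7% of those of MC_2580. H3K4me1 covered 211 Mb in the combination and 201 Mb with MC_2580, a ratio of 1.05. This is far closer than its peak numbers. Combination-only H3K4me1 peaks held 23.9 Mb and MC_2580-only ones 4.17 Mb. H3K4me2 covered 61.4 Mb in the combination and 59.6 Mb with MC_2580, a ratio of 1.03 although its combination list was the shorter one. H3K4me3 covered 84.3 Mb in the combination and 101 Mb with MC_2580, a ratio of 0.84. The Jaccard index, the bases in both lists over the bases in either, was 0.459 for H3K27ac and 0.707 to 0.736 for the H3K4 marks.

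Peaks in 1 list only were mostly weak within their list. The score of a peak is the peak caller's, on the scale of -10 times log10 of its p-value, from 50 up to a pile-up at 3100, and it ranks peaks within a list. Combination-only H3K27ac peaks had a median score of 94.2, against 873 for shared peaks of the same list. MC_2580-only H3K27ac peaks had a median of 73.8, against 288 for shared ones. In H3K4me1 the medians were 92.4 for combination-only and 66.0 for MC_2580-only peaks, and in H3K4me2 75.6 and 73.4.

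H3K27ac differed from the H3K4 marks in how far up the list the combination-only peaks went. Of the H3K27ac peaks in the highest score quartile of the combination, 94.7% had an MC_2580 partner, and in the next quartile 65.4% did. In the H3K4 marks that next quartile held partners for 95.5% (H3K4me1), 98.0% (H3K4me2) and 99.3% (H3K4me3). Of the H3K27ac peaks of MC_2580, 96.6% in that next quartile had a partner in the combination, and 99.5% in the highest. The strong acetylation peaks of MC_2580 were thus nearly all called in the combination, and the converse held less far.

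Among strong peaks all 4 marks had more combination-only than MC_2580-only peaks, a view chosen after the values were seen. At scores of 500 or more, H3K27ac had 1353 combination-only and 69 MC_2580-only peaks, and H3K4me1 had 296 and 1. H3K4me2 had 121 combination-only and 6 MC_2580-only peaks at that score, and H3K4me3 had 33 and 11. Most strong peaks were shared. In the combination and MC_2580 lists, shared peaks at that score numbered 13092 and 8096 for H3K27ac and 26883 and 16169 for H3K4me1. For H3K4me2 they numbered 20201 and 20981, and for H3K4me3 12352 and 14328. Among the few strong H3K4me2 and H3K4me3 peaks in 1 list only, the order of the counts was the reverse of that over all peaks. Ranks within each list gave the same order. In the stronger 50% of each H3K4me2 list, 225 of 22731 peaks (0.99%) were combination-only and 68 of 25368 (0.27%) MC_2580-only. For H3K4me3 it was 51 of 13481 (0.38%) and 21 of 14936 (0.14%). Scores from different libraries are not on a common scale, and depth differences were not tested.

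**Figure D2:**
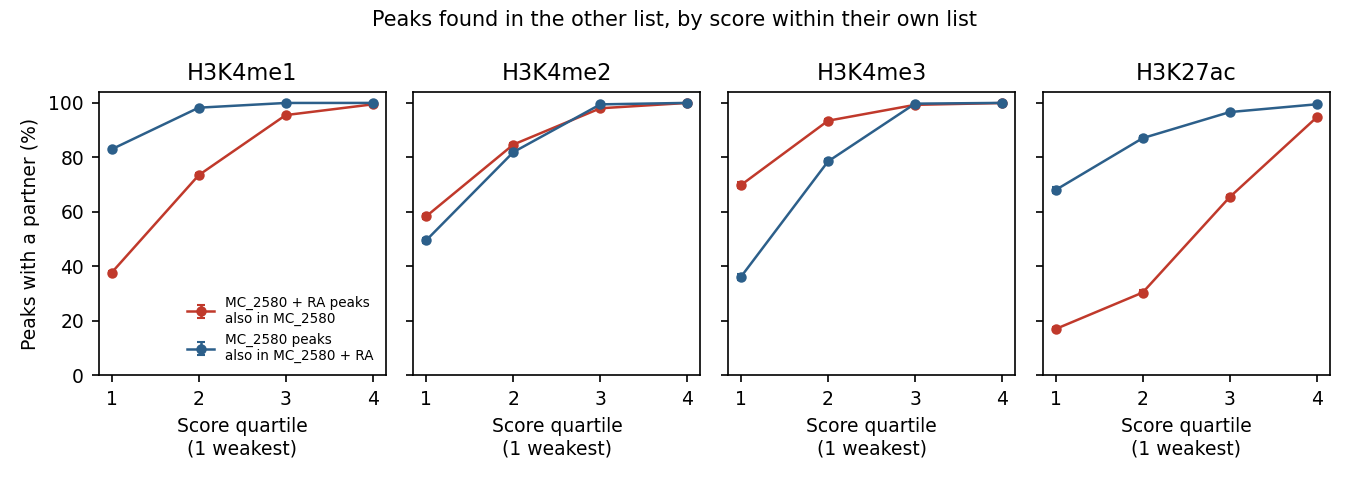
Share of peaks with an overlapping peak in the other list, by score quartile within their own list (1 weakest, 4 strongest), for combination peaks and MC_2580 peaks of each mark; bars are 95% exact binomial intervals, mostly smaller than the points. In the third quartile 65.4% of H3K27ac peaks of the combination have a partner, against 96.6% of those of MC_2580.

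Peaks in 1 list only were also narrow. Combination-only H3K27ac peaks had a median width of 1947 bases (quartiles 1422 and 2928), against 3278 bases for shared peaks of the combination list. MC_2580-only H3K27ac peaks had a median of 2067 bases, against 3025 for shared ones of the MC_2580 list. For H3K4me1 the medians were 1273 bases for combination-only and 1520 for MC_2580-only peaks. For H3K4me2 they were 512 and 427 bases, and for H3K4me3 1368 and 1544 bases. The order of these medians between the treatments thus differed between marks, with combination-only peaks the wider class in H3K4me2 alone.

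At peaks that matched one to one, widths differed little at the median. H3K27ac peaks were wider in the combination, with medians of 3148 bases in the combination and 2891 with MC_2580 and a median log2 width ratio of 0.088 over 16376 pairs. At 2869 pairs (17.5%) the combination peak was more than 1.5-fold wider, and at 1452 (8.87%) more than 1.5-fold narrower. H3K4me2 peaks had a median log2 ratio of 0.060 over 28016 pairs. Those of H3K4me1 and H3K4me3 were narrower in the combination, with medians of -0.11 over 41774 pairs and -0.15 over 21451 pairs.

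The width ratio was nearer to 0 where LSD1 had a peak. H3K27ac had 0.075 with LSD1 and 0.11 without it. H3K4me1 had -0.087 with LSD1 and -0.12 without, H3K4me2 had 0.035 against 0.094, and for H3K4me3 it was -0.13 against -0.18. Pairs with LSD1 were also wider to begin with, with an H3K27ac median of 3545 bases in the combination against 2605 without LSD1, and the part of width in this was not tested. Some peaks of one list matched several of the other. In H3K4me1, 2521 combination peaks (3.46%) spanned several MC_2580 peaks, whereas 5958 of the 54181 MC_2580 peaks spanned several of the combination. In H3K4me2 it was the reverse, with 5864 combination peaks (12.9%) spanning several MC_2580 peaks and 3161 MC_2580 peaks (6.23%) spanning several of the combination.

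Most combination-only acetylation lay away from acetylation already called with MC_2580. The median distance of a combination-only H3K27ac peak to the nearest H3K27ac peak of MC_2580 was 12430 bases. Of these peaks 29.3% lay within 5 kb and 18.5% at 50 kb or more. MC_2580-only H3K27ac peaks had a median distance of 6230 bases to a combination peak. H3K4me2 was the contrasting mark, with median distances of 2614 bases for combination-only and 1609 bases for MC_2580-only peaks, and 60.8% and 65.1% lay within 5 kb. H3K4me3 had 11795 and 17041 bases, and H3K4me1 6859 and 4180 bases. A longer list leaves less room between its peaks, and in every mark but H3K4me2 the smaller distance was the one to the longer list.

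The other conditions showed where the differing peaks were also called. Of the 19821 combination-only H3K27ac peaks, 30.5% were called in DMSO, 64.7% with RA 0.01 µM and 57.9% in RA 1 µM. Those lists held 32789, 55793 and 38808 peaks, and the long list with RA at 0.01 µM meets more peaks by its length. Combination-only H3K27ac peaks called with both RA doses and not in DMSO numbered 4655 (23.5%). A further 6039 were called in DMSO, so that MC_2580 without RA lacked a call that the solvent had. None of the other 3 conditions had a call at 3964.

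MC_2580-only H3K27ac peaks had another profile. DMSO had 59.6% of them, RA at 0.01 µM 47.8% and RA at 1 µM 32.7%, and 134 (4.48%) were called with both RA doses and not in DMSO. Peaks called in DMSO and in neither RA dose made up 1.73% of combination-only and 18.5% of MC_2580-only H3K27ac peaks. Of the shared peaks of the combination list, DMSO had 93.1%, RA at 0.01 µM 88.6% and RA at 1 µM 91.9%.

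H3K4me1 and H3K4me2 had the same contrast at lower shares. In the order DMSO, lower RA dose, higher RA dose, calls were found at 28.3%, 36.1% and 45.8% of combination-only H3K4me1 peaks and at 49.6%, 14.1% and 19.6% of MC_2580-only ones. For H3K4me2 they were found at 16.4%, 32.3% and 49.8% of combination-only peaks and at 36.4%, 17.9% and 17.5% of MC_2580-only peaks. In H3K27ac, H3K4me1 and H3K4me2, DMSO thus had fewer combination-only peaks than either RA dose and more MC_2580-only peaks. H3K4me3 broke this pattern, with 5.35%, 49.1% and 39.8% of combination-only and 13.8%, 38.3% and 27.6% of MC_2580-only peaks. Its DMSO list, with 21688 peaks, was the shortest of the 5. Among shared peaks of the combination lists the shares were, in the same order, 93.4%, 84.9% and 90.4% for H3K4me1. For H3K4me2 they were 87.2%, 85.9% and 87.1%, and for H3K4me3 80.4%, 93.2% and 90.5%. The lists held 57630, 60844 and 64642 H3K4me1 peaks and 40598, 39302 and 46010 H3K4me2 peaks in that order.

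**Figure D3:**
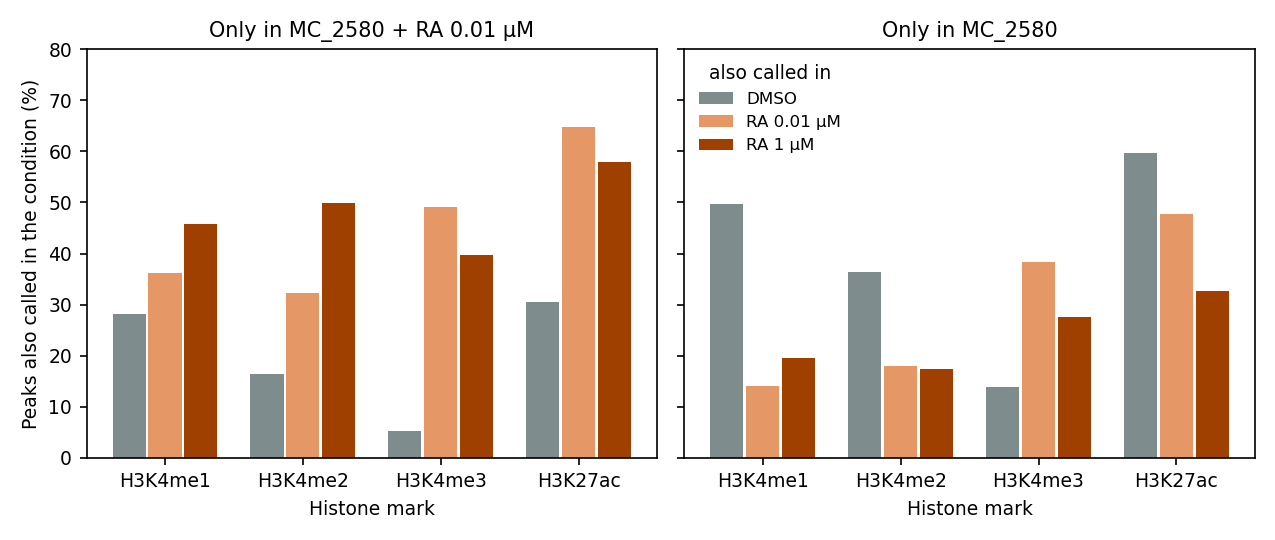
Share of combination-only peaks (left) and MC_2580-only peaks (right) that were also called in DMSO, RA at 0.01 µM and RA at 1 µM, by mark. Combination-only H3K4me1 and H3K4me2 peaks were called least in DMSO (28.3% and 16.4%), and MC_2580-only ones most (49.6% and 36.4%).

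Among strong combination-only peaks, DMSO and either RA dose lay further apart in percentage points than over all combination-only peaks in every mark. Among strong MC_2580-only peaks the contrast was wider in H3K27ac and H3K4me2. Of the 1353 combination-only H3K27ac peaks with scores of 500 or more, 49.3% were called in DMSO, 87.2% with RA 0.01 µM and 95.0% in RA 1 µM, and 37 in no other condition. Of the 69 strong MC_2580-only H3K27ac peaks, 67 were called in DMSO, 17 with RA 0.01 µM and 30 in RA 1 µM. Of the 121 strong combination-only H3K4me2 peaks, 90 were called with both RA doses and not in DMSO, and 27 of the 33 strong H3K4me3 peaks were. For H3K4me1 it was 151 of 296. Over all combination-only peaks these shares were 18.6% for H3K4me2, 29.9% for H3K4me3 and 16.2% for H3K4me1. Strong combination-only H3K4me1 peaks were called at 36.1% in DMSO, 88.5% with RA 0.01 µM and 91.9% in RA 1 µM. For H3K4me3 the shares were 12.1%, 90.9% and 90.9% in the same order. Of the 11 strong MC_2580-only H3K4me3 peaks, 10 were called in DMSO and 7 with each RA dose, unlike the order over all MC_2580-only H3K4me3 peaks. These shares come from few peaks in H3K4me3, and strong peaks are called more readily in any list.

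The same RA dose without MC_2580 gave a contrast that shares no library with this one, RA at 0.01 µM against DMSO. For H3K27ac, 7151 combination-only peaks (36.1%) lay on a peak called with RA at 0.01 µM and not in DMSO, and 23.9% of the 30048 such peaks were met. The peaks called in DMSO and not with RA at 0.01 µM were fewer. On these lay 947 combination-only peaks (4.78%), and 15.6% of the 6012 were met. MC_2580-only H3K27ac peaks lay on these DMSO-only peaks at 842 (28.1%) and on the RA-only ones at 447 (14.9%). They met 14.4% of the DMSO-only and 1.52% of the RA-only peaks. For H3K4me1, 3740 combination-only peaks (21.9%) lay on RA-only peaks and met 52.8% of those 7101. On DMSO-only peaks lay 2189 (12.8%), which met 19.3% of those 11223. H3K4me2 had 1539 combination-only peaks on RA-only peaks, which met 27.6% of those 5618. Another 511 (7.64%) lay on DMSO-only peaks and met 6.37% of those 8017. H3K4me3 had 1053 (41.7%) on RA-only peaks, meeting 12.9% of those 8101, and 38 (1.51%) on DMSO-only peaks, meeting 4.3% of those 861. MC_2580-only H3K4me3 peaks also lay more often on RA-only than on DMSO-only peaks, 1771 (27.7%) and 304 (4.76%). They met 21.9% of the RA-only and 35.4% of the DMSO-only peaks of that mark.

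LSD1 was rarer on the differing peaks than on shared ones. Over whole lists, 36.6% of H3K27ac peaks of the combination and 53.9% of those of MC_2580 had an LSD1 peak of MC_2580-treated cells. Combination-only H3K27ac peaks had LSD1 at 12.5% (12.1 to 13.0%) and MC_2580-only ones at 14.7%, against 58.9% and 59.4% of the shared peaks of the same lists. In H3K4me1, LSD1 lay on 2.54% of combination-only and 2.87% of MC_2580-only peaks, against 36.5% and 37.4% of shared peaks, where the whole lists had 28.5% and 35.8%. For H3K4me3 the values were 17.9% and 18.7%, with 51.3% and 47.8% over the whole lists. Differing peaks were weaker and narrower than shared ones. At scores of 500 or more, combination-only H3K27ac peaks had LSD1 at 32.4% and GFI1 at 29.9%, and the 69 MC_2580-only ones had LSD1 at 46.4% and GFI1 at 50.7%. At that score LSD1 lay on 8 of 33 combination-only and 8 of 11 MC_2580-only H3K4me3 peaks, and GFI1 on 13 and 4. The shares thus moved with the score, and in these small classes some were above those of all shared peaks. With windows of 500 bases on either side of each peak centre, H3K27ac had LSD1 at 11.1% of combination-only and 54.2% of shared peaks.

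H3K4me2 was the mark in which the treatments differed most in LSD1. Combination-only H3K4me2 peaks carried it at 20.5% (19.5 to 21.5%) and MC_2580-only peaks at 27.2% (26.3 to 28.2%), a difference of -6.76 percentage points (-8.11 to -5.42). Over the whole lists the shares were 48.5% and 49.1%. The difference was -2.22 points (-3.57 to -0.87) in H3K27ac, and its interval held 0 in H3K4me1 (-0.33) and H3K4me3 (-0.82).

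GFI1 had the same order in H3K4me2 and H3K27ac and the opposite one in H3K4me3. In H3K4me2, 9.60% of combination-only and 15.0% of MC_2580-only peaks had a GFI1 peak, a difference of -5.37 points (-6.40 to -4.35), with 24.6% and 24.4% over the whole lists. In H3K27ac the shares were 11.8% and 16.1%, a difference of -4.29 points (-5.68 to -2.90), with 24.3% and 32.5% over the whole lists. LSD1 and GFI1 lay together on 4.49% of combination-only and 8.24% of MC_2580-only H3K4me2 peaks. Shared H3K4me2 peaks had both factors at 21.5% in the combination list and 21.0% in the MC_2580 list. H3K4me3 had GFI1 at 15.6% of combination-only and 13.7% of MC_2580-only peaks, a difference of 1.91 points (0.26 to 3.55), with 31.3% and 29.9% over the whole lists. With windows around peak centres that difference was 1.43 points and its interval held 0. LSD1 and GFI1 together had the reverse order in H3K4me3, on 6.81% of combination-only and 8.37% of MC_2580-only peaks, a difference of -1.56 points (-2.75 to -0.36). For shared H3K4me3 peaks the shares with both were 26.7% in the combination list and 27.8% in the MC_2580 list. In H3K4me1, GFI1 lay on 5.19% of combination-only and 5.50% of MC_2580-only peaks, with 19.6% and 24.4% over the whole lists.

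**Figure D4:**
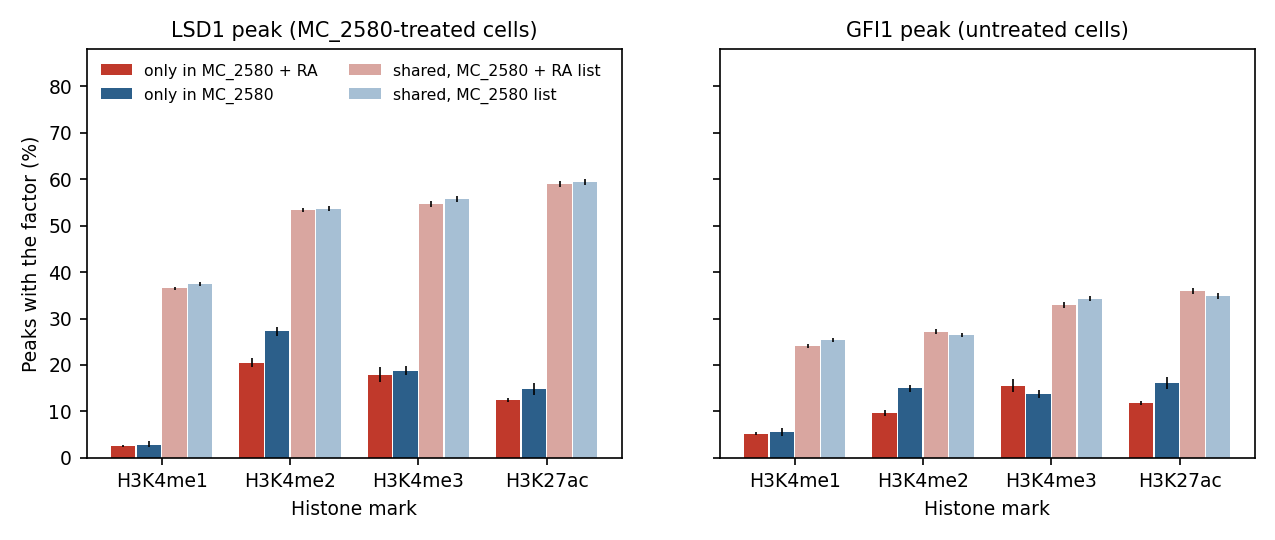
Share of peaks with an LSD1 peak of MC_2580-treated cells (left) or a GFI1 peak of untreated cells (right), for combination-only, MC_2580-only and shared peaks of each mark, with 95% exact binomial intervals. Peaks in 1 list only had either factor less often than shared peaks, and in H3K4me2 LSD1 lay on 20.5% of combination-only and 27.2% of MC_2580-only peaks.

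LSD1 sites themselves had H3K27ac calls more often in the combination than with MC_2580. Of the 18822 LSD1 peaks of MC_2580-treated cells, 86.4% had H3K27ac in the combination and 74.9% with MC_2580. H3K27ac was called at 2660 of them in the combination only and at 504 with MC_2580 only. H3K4me3 ran the other way, at 73.9% in the combination and 77.9% with MC_2580, and H3K4me2 stood at 84.3% and 86.0%. H3K4me1 was present at 97.2% and 96.3%. Of the sites with a call in 1 list only, H3K4me1 had 231 in the combination and 69 with MC_2580. Each mark thus had at LSD1 sites the direction of its whole list.

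The LSD1 sites were split by H3K4me3, as a stand-in for promoters, and by GFI1. At the 1162 sites with GFI1 and no H3K4me3 in either list, H3K27ac was present at 64.7% in the combination and 44.1% with MC_2580. At the 2584 sites with neither GFI1 nor H3K4me3 the shares were 63.9% and 43.3%. At the 7259 sites with GFI1 and H3K4me3 they were 92.3% and 84.4%, and at the 7817 with H3K4me3 alone 91.6% and 81.2%. DMSO had H3K27ac at 52.2% (with GFI1) and 57.6% (without) of the sites lacking H3K4me3, and at 86.8% and 88.3% of those with it. In the same order RA at 0.01 µM had it at 51.5%, 69.0%, 85.0% and 91.1%. In percentage points the combination and MC_2580 lay further apart at the sites without H3K4me3, where fewer sites were acetylated. The log2 ratio of sites with H3K27ac in the combination only to sites with it in MC_2580 only did not share that order, at 2.09 (with GFI1) and 2.32 (without) where H3K4me3 was absent, and 2.22 and 2.77 where it was present. H3K4me2 differed by GFI1 at the sites without H3K4me3: it stood at 49.7% in the combination and 56.3% with MC_2580 where GFI1 was present, with 73 sites called in the combination only and 150 with MC_2580 only. Where GFI1 was absent it stood at 38.9% in both, with 202 and 203. DMSO had H3K4me2 at 33.7% and RA at 0.01 µM at 29.6% of these GFI1 sites.

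Acetylation was new at many regions that carried H3K4me1 without H3K27ac in MC_2580. Of the 54181 H3K4me1 peaks of MC_2580, 60.5% had H3K27ac in the combination and 44.6% with MC_2580. H3K27ac was newly called in the combination at 10238 of the 29995 that lacked it with MC_2580, 34.1% (33.6 to 34.7%). It was no longer called at 1636 of 24186, 6.76%. With H3K27ac lists of equal length the newly called share was 18.9%.

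The newly called share differed with LSD1 more than with GFI1. It was 60.4% where LSD1 and GFI1 both had a peak, 60.4% with LSD1 only, 35.3% with GFI1 only and 29.5% with neither. The regions with LSD1 were wider, with a median of 5508.5 bases with both factors, 3536 with LSD1 only, 2939 with GFI1 only and 2165 with neither. Within 500 bases on either side of each H3K4me1 centre the shares were 54.5%, 60.2%, 32.4% and 27.5% in the same order. At H3K4me2 peaks of MC_2580 without H3K27ac the newly called shares were 62.5% with both factors, 63.7% with LSD1 only, 38.8% with GFI1 only and 29.8% with neither. H3K4me1 peaks with LSD1 also had H3K27ac more often with MC_2580, at 81.3%, 78.8%, 33.4% and 23.7% in the same order. The share of these acetylated H3K4me1 peaks no longer called in the combination was 2.80%, 2.28%, 15.1% and 14.2%. H3K27ac lists of equal length were not compared by factor.

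**Figure D5:**
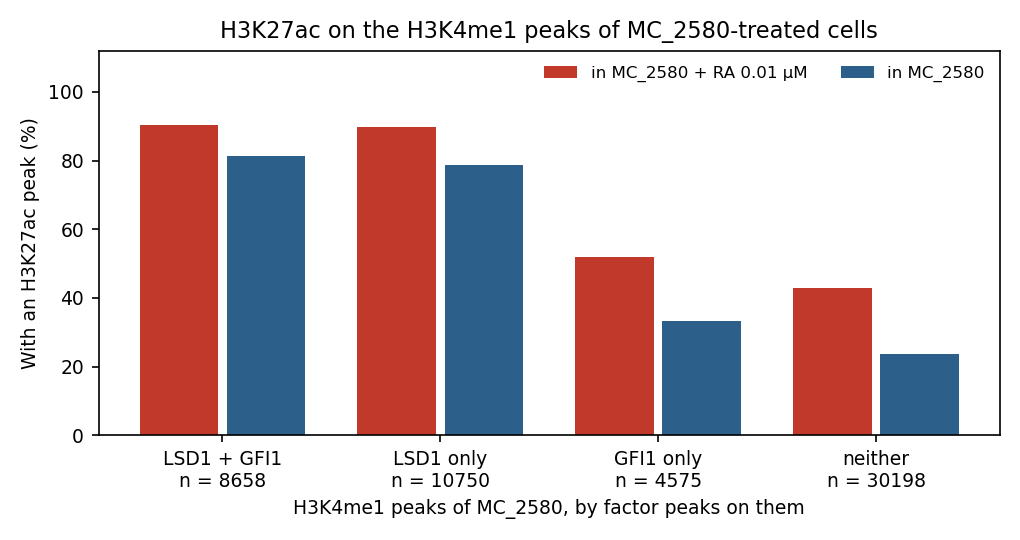
Share of the H3K4me1 peaks of MC_2580 that had an H3K27ac peak in the combination (left bars) and with MC_2580 (right bars), by the LSD1 and GFI1 peaks on them. Combination bars are higher in all 4 groups, from 42.8% against 23.7% with neither factor to 90.3% against 81.3% with both.

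H3K4me3 was newly called at some H3K4me2 regions and no longer called at others. Of the 13535 H3K4me2 peaks of MC_2580 that lacked H3K4me3, 1214 (8.97%) had it in the combination, and of the 37201 that carried it, 3889 (10.5%) did not. H3K4me2 on H3K4me1 peaks was near balance, with 2055 of 23626 (8.70%) newly called and 2546 of 30555 (8.33%) no longer called.

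Differing peaks of several marks overlapped in part. Of the combination-only H3K27ac peaks, 4585 (23.1%) overlapped a combination-only peak of at least 1 H3K4 mark, and 1346 (6.79%) an MC_2580-only one. Of the MC_2580-only H3K27ac peaks, 577 (19.3%) overlapped an MC_2580-only H3K4 peak and 169 (5.65%) a combination-only one. For single marks, shared H3K27ac peaks differed from these in H3K4me1. A combination-only H3K4me1 peak lay on 14.8% of combination-only and 5.34% of shared H3K27ac peaks of the combination list. An MC_2580-only H3K4me1 peak lay on 2.44% of MC_2580-only and 0.89% of shared ones of the MC_2580 list. For MC_2580-only H3K4me3 peaks the shares were 7.99% and 5.78%. The shares were closer in H3K4me2 and for combination-only H3K4me3 peaks. A combination-only H3K4me2 peak lay on 8.18% of combination-only and 9.98% of shared H3K27ac peaks of the combination list, and a combination-only H3K4me3 peak on 3.16% and 2.96%. An MC_2580-only H3K4me2 peak lay on 12.0% of MC_2580-only and 13.0% of shared H3K27ac peaks of the MC_2580 list. Counted over H3K4me2 peaks, 27.2% of combination-only ones lay on a combination-only H3K27ac peak, against 13.2% of shared ones. An MC_2580-only H3K27ac peak lay on 4.56% of MC_2580-only H3K4me2 peaks, against 1.54% of shared ones, and these lower shares come with the smaller number of such H3K27ac peaks. Of the combination-only H3K27ac peaks, 53.3% lay on H3K4me1 called in both treatments, 2768 on H3K4me1 called in the combination without MC_2580 and 31.4% on none. At 58 combination-only H3K27ac peaks (0.29%), at least 1 combination-only peak of each of the 3 H3K4 marks overlapped. No MC_2580-only H3K27ac peak overlapped MC_2580-only peaks of all 3. That class was smaller, with 2993 peaks, and only 73 of them lay on any of the 2547 MC_2580-only H3K4me1 peaks. The part of these smaller numbers in the difference was not tested. The 58 were wide, with a median of 9035.5 bases against 1947 for all combination-only H3K27ac peaks. H3K4 peaks of MC_2580 could lie in the same intervals. Of these 58, 16 (27.6%) were called for H3K27ac in DMSO, 49 (84.5%) with RA 0.01 µM and 49 (84.5%) in RA 1 µM. Over all combination-only H3K27ac peaks these shares were 30.5%, 64.7% and 57.9%. LSD1 lay on 14 of the 58 (24.1%) and GFI1 on 17 (29.3%), against 12.5% and 11.8% of all combination-only H3K27ac peaks. Shared H3K27ac peaks of the combination list had LSD1 at 58.9% and GFI1 at 35.9%.

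Among the 58 combination-only H3K27ac peaks above was chromosome 10 from 125742661 to 125801464, of 58804 bases at score 3100. It held no H3K27ac peak with MC_2580 or in DMSO, 4 with RA 0.01 µM and 2 in RA 1 µM. In the same interval H3K4me3 was called 8 times in the combination and 1 time with MC_2580, H3K4me2 13 and 3 times, and H3K4me1 6 and 5 times. It had 1 LSD1 peak in MC_2580-treated cells, 1 in DMSO and 1 GFI1 peak. The combination-only H3K4me3 peak at its start, from 125742652 to 125751917, was the highest-scoring one with both factors, at 1358. The 100 kb window from 125700001 had 7 combination-only H3K4me3 peaks, more than any other window. Further along the chromosome, from 125811509 to 125826253, lay a combination-only H3K4me1 peak of score 3100 with H3K27ac, H3K4me2 and H3K4me3 in the combination and none of the 4 with MC_2580 or in DMSO.

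The widest of the top-scoring combination-only H3K27ac peaks spanned 83331 bases on chromosome 10 from 73105793 to 73189123. DMSO had 3 H3K27ac peaks there with a highest score of 166, RA at 0.01 µM 1 and RA at 1 µM 2, each of the RA lists reaching 3100. The H3K4 marks were called in both treatments, with 6 H3K4me1 peaks in the combination and 5 with MC_2580, and 15 and 14 of H3K4me2. H3K4me3 was called 4 and 3 times, with highest scores of 3100 and 446. This region too was among the 58 with combination-only peaks of every H3K4 mark. The region carried 5 LSD1 and 10 GFI1 peaks. Next came chromosome 19 from 8431198 to 8499167, 67970 bases wide, with 28 GFI1 peaks and 2 LSD1 peaks. Inside it, from 8460450 to 8462133, lay the highest-scoring combination-only H3K4me2 peak with LSD1 and GFI1, at 1871, and DMSO had H3K4me2 there at 117 and H3K27ac at 1116. That region was thus acetylated in the solvent and in both RA doses, and MC_2580 was the condition without a call.

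On chromosome 20 from 48400001 to 48500000 combination-only peaks were the densest of any window in both H3K27ac (16) and H3K4me1 (12). H3K27ac was called there 21 times in the combination and 4 with MC_2580, H3K4me2 9 and 3 times and H3K4me3 5 and 1 times. LSD1 had 6 peaks in each of its lists. Before it on the chromosome, from 48323272 to 48329387, lay the most widened H3K4me2 peak, of 6116 bases in the combination and 1018 with MC_2580. H3K4me3 and H3K27ac were called there in the combination and in both RA doses and not with MC_2580, and DMSO had H3K27ac at a score of 71.6.

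Further combination-only H3K4me2 and H3K4me3 peaks at the top of their lists lay on chromatin with H3K4me1. On chromosome 11 from 120278331 to 120281617, the H3K4me2 score was 3004 in the combination, 764 at the lower RA dose and 809 at the higher one. H3K4me1 was called there in all 5 conditions, at 3100 in the combination and 162 with MC_2580, and H3K27ac and H3K4me3 in the 3 with RA. Chromosome 1 from 153415695 to 153419166 and chromosome 7 from 75438609 to 75440187 had the same H3K4me1 and H3K4me3 pattern, and their H3K4me2 scores were 3100 and 2752. Top H3K4me3 peaks lay on chromosome 12 from 32529129 to 32536585, on chromosome 20 from 36223999 to 36228224 and on chromosome 1 from 207885835 to 207892820. Each had H3K4me1 with MC_2580 and H3K4me3 and H3K27ac in the combination and both RA doses only. None of these 6 regions had an LSD1 peak, whereas 22 of the 121 combination-only H3K4me2 peaks and 8 of the 33 H3K4me3 peaks with scores of 500 or more did.

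Shared peaks also differed in width. The most widened H3K27ac peak lay on chromosome 9 from 131549207 to 131586468, at 37262 bases in the combination and 2107 with MC_2580, a ratio of 17.7. H3K4me1 was called 10 times in that interval in the combination and 3 with MC_2580, and H3K4me3 4 and 1 times. The most widened H3K4me3 peak, on chromosome 1 from 17506667 to 17513312, measured 6646 bases in the combination and 1722 with MC_2580 and carried LSD1 at 3100 and GFI1. The most widened H3K4me1 peak, on chromosome 16 from 83761388 to 83768849, measured 7462 and 1320 bases. LSD1 had a peak there with MC_2580 and not in DMSO, and the other 3 marks were absent with MC_2580.

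The top MC_2580-only H3K27ac peaks were also called in DMSO. The highest-scoring MC_2580-only H3K27ac peak lay on chromosome 2 from 213528546 to 213537345, at 3100 with MC_2580, 3210 in DMSO, absent with RA 0.01 µM and 430 in RA 1 µM. H3K4me1 was called there in all 5 conditions. The next, on chromosome 13 from 35883580 to 35894630, scored 2314 with MC_2580 and 2566 in DMSO and was absent with RA at 0.01 µM. The MC_2580-only H3K27ac peak with the highest score among those with LSD1 and GFI1 lay on chromosome 8 from 104260527 to 104269655, at 1823 with MC_2580 and 3100 in DMSO, and was absent in both RA doses. On chromosome 22 from 48300001 to 48400000, 9 MC_2580-only H3K27ac peaks fell in 1 window, with 3 calls in the combination and 10 with MC_2580, and with 12 in DMSO and 17 with RA at 0.01 µM.

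Several top MC_2580-only H3K4me2 and H3K4me3 peaks carried LSD1. On chromosome 17 from 35927759 to 35929694, H3K4me2 scored 1055 with MC_2580 and 199 in DMSO, and H3K4me3 2676 and 395. Neither mark was called there in the combination or either RA dose, while H3K27ac scored 560 in the combination and 3100 with MC_2580. LSD1 had a score of 2560. On chromosome 20 from 30559064 to 30565840, H3K4me3 scored 1157 with MC_2580 and 57.2 in DMSO and was absent in the 3 conditions with RA, with LSD1 at 2437 and GFI1 at 407. On chromosome 14 from 22009990 to 22026936 the H3K27ac peak of MC_2580 measured 16947 bases and that of the combination 1897, the most narrowed of that mark. The highest-scoring MC_2580-only H3K4me3 peak, of 11834 bases, lay inside it.

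Some top-ranked peaks lay where the other H3K4 marks were at the pile-up of the score, which hides any difference between conditions, or where no other mark was called. The highest-scoring combination-only H3K4me1 peak, on chromosome 8 from 128873382 to 128898804, had H3K4me1 in all conditions but MC_2580, while H3K4me2 and H3K4me3 stood at 3100 in all 5. The one strong MC_2580-only H3K4me1 peak, on chromosome 6 from 42998050 to 43012264, had H3K4me2, H3K4me3 and H3K27ac at 3100 or above in both treatments, and H3K4me1 was absent there with RA at 1 µM too. The window with the most MC_2580-only H3K4me3 peaks (11), on chromosome 12 from 36600001 to 36700000, had no peak of any other mark or factor in any list. Its H3K4me3 calls numbered 1 in the combination, 13 with MC_2580, 4 in DMSO, 5 with RA 0.01 µM and 5 in RA 1 µM. The cause of these patterns was not tested.

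The direction of each mark held over chromosomes to different degrees. The log2 ratio of combination-only to MC_2580-only peaks was above 0 on 22 of 22 autosomes for H3K27ac, from 2.04 on chromosome 4 to 4.13 on chromosome 19, and for H3K4me1, from 1.99 on chromosome 22 to 3.23 on chromosome 13. It was below 0 on every autosome for H3K4me3, from -1.56 on chromosome 11 to -1.01 on chromosome 22. H3K4me2 was mixed, with 3 autosomes above 0 and a range from -1.24 on chromosome 13 to 0.49 on chromosome 19. On chromosome 19, 521 of 3243 H3K4me2 peaks (16.1%) were combination-only and 370 of 3383 (10.9%) MC_2580-only. On chromosome 13 it was 103 of 901 (11.4%) and 243 of 1084 (22.4%). Chromosomes are not replicates, and all come from the same pair of libraries.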

How the data were processed

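Peak lists from ChIP-seq of NB4 cells were compared between MC_2580 plus RA 0.01 µM and MC_2580, with 1 library for each mark and treatment. Per the submitters' processing notes, the tools were Bowtie 1.0.1 and MACS 1.4.1, FastQC (0.10.0 and 0.11.5), CASAVA 1.8 and bcl2fastq 2, and the build was hg18; no role or order is stated. The deposited score is the authors' value for each peak. Its lowest value is 50 in histone lists, and 357 in the LSD1 list of MC_2580, which holds only part of its numbered calls.

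Starts below 0 were set to 0. Overlaps, one-to-one pairs and exact binomial intervals came from Python 3.11.15 with NumPy 2.4.6 and SciPy 1.17.1; Matplotlib 3.10.9 drew the figures. The overlap steps were tested on simulated data. Differences of shares have normal intervals. Peaks are not replicates.

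The members, regions and comparisons were chosen with earlier results of these data known. In each mark and class, regions were taken from the 3 peaks highest by score (scores from 3100 held equal, then wider first), the highest with LSD1 and GFI1, the densest 100 kb window, and the pairs of at least 1 kb with the most different widths; some are left unprinted. The 2 input samples were not used. Alternatives were a minimum score of 100 in both lists or on one side, a reciprocal overlap of 50%, joining within 1 kb, lists of equal length, windows of 500 bases on either side of peak centres, and autosomes only; a minimum of 500 and the stronger 50% of each list were added later.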

Additional observations from a re-analysis of the deposited data

Results flagged for a closer look

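Adding RA at 0.01 µM had opposite directions with and without MC_2580 in H3K4me1 and H3K4me3. In H3K4me1 the log2 ratio of peaks called only with RA to peaks called only without it was 2.75 on top of MC_2580 (combination against MC_2580) and -0.66 without MC_2580 (RA at 0.01 µM against DMSO). In H3K4me3 it was -1.34 on top of MC_2580 and 3.23 without it, where DMSO had the shortest H3K4me3 list. H3K4me2 (-0.39 and -0.51) and H3K27ac (2.73 and 2.32) had the same sign in both settings. The directions on top of MC_2580 depend on the processing. With lists of equal length H3K4me1 had -0.43, the same sign as without MC_2580. H3K4me3 had 1.58 among peaks scoring 500 or more and 1.28 in the stronger 50% of each list, again the sign found without MC_2580. These settings were not run on RA at 0.01 µM against DMSO. Each value comes from 1 pair of libraries, and the difference between the settings was not tested.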

How the results depend on the processing

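Of 71 alternative values for 17 results, 26 stayed within the counting interval, 39 moved outside it with the same sign and 6 moved outside it with the opposite sign. Of the 26, 2 also changed sign, both differences whose interval held 0: that in GFI1 share for H3K4me1 (0.093 points around peak centres) and that in LSD1 share for H3K4me3 (0.19 with scores of 100 or more). No paired analysis was possible because each mark and treatment had 1 library. The values below are log2 ratios of combination-only to MC_2580-only peaks unless named otherwise. With lists of equal length H3K4me1 turned to -0.43 and H3K4me2 to 0.49, while H3K4me3 was -0.41 and H3K27ac 0.27. Against the whole other list, peaks scoring 500 or more gave 8.21 for H3K4me1, 4.33 for H3K4me2, 1.58 for H3K4me3 and 4.29 for H3K27ac, and the stronger 50% of each list gave 7.83, 1.73, 1.28 and 4.11 in the same order. These last settings were chosen after seeing the data and turned the sign of H3K4me2 and H3K4me3. The one-sided minimum score of 100 gave 4.42, -0.094, -2.05 and 3.41, and that minimum in both lists 3.52, -0.33, -2.14 and 3.02. A reciprocal overlap of 50% gave 1.82, -0.51, -0.64 and 1.57. Joining peaks within 1 kb moved H3K4me2 to -0.16 and H3K27ac to 2.59.

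The median log2 width ratio kept its sign in every mark under each setting run. With joined peaks it was -0.080 for H3K4me1, 0.029 for H3K4me2 and 0.11 for H3K27ac, with equal lists -0.095 for H3K4me1 and 0.10 for H3K27ac, and with scores of 100 or more 0.052 for H3K4me2, -0.13 for H3K4me3 and 0.075 for H3K27ac. With scores of 100 or more the difference in LSD1 share was -9.28 points for H3K4me2 and -4.62 for H3K27ac, and that in GFI1 share -1.77 for H3K4me1, -7.35 for H3K4me2, 3.85 for H3K4me3 and -8.92 for H3K27ac. The H3K4me2 difference in GFI1 share was -6.74 points around peak centres and -7.91 with joined peaks. H3K27ac newly called at H3K4me1 peaks was 34.7% with scores of 100 or more, 18.9% with equal lists and 31.6% around peak centres. The cause of these moves was not tested, beyond the fewer peaks that a stricter score or an equal length leaves. Without replicates or read depth, list length and biology cannot be told apart.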
